A study of Mus musculus with 6 samples.

Results

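Interferon receptors and the kinases and transcription factors behind them were compared in LPS-stimulated macrophages with and without a deletion in Xbp1. The genes were the 4 interferon receptor chains Ifnar1, Ifnar2, Ifngr1 and Ifngr2, the Janus kinases Jak1, Jak2 and Tyk2, and the transcription factors Stat2 and Stat6, 9 of the 54660 gene rows deposited, taken by name. The tested libraries were 3 of bone marrow-derived macrophages labelled Xbp1M-KO (KO), and they were set against 3 labelled Xbp1FL/FL (WT), whose Xbp1 alleles are floxed but intact. Bone marrow-derived macrophages are macrophages grown in culture from marrow. All donors were C57BL/6 mice aged 6 to 8 weeks, and all 6 cultures had received lipopolysaccharide (LPS), a bacterial cell wall component, for 6 h. No library without LPS was analysed here. The promoter that drives the Cre recombinase, the floxed exon, and whether replicates came from separate animals are details not given in the sources used here. P-values therefore set the KO to WT difference only against the spread between replicate libraries, and that spread may be technical. The title of the study links XBP1, which drives genes of the unfolded protein response, to STING signalling in macrophages and to liver fibrosis.

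Type I interferons bind a receptor made of the IFNAR1 chain, which carries the kinase TYK2, and the IFNAR2 chain, which carries JAK1. Interferon gamma binds IFNGR1, which carries JAK1, paired with IFNGR2, which carries JAK2. The activated kinases phosphorylate STAT proteins: STAT2 and IRF9 act in the ISGF3 complex after type I interferon, STAT dimers act after interferon gamma, and STAT6 acts after the cytokines IL-4 and IL-13. LPS-stimulated macrophages are known to make interferon beta and to respond to it through the type I receptor.

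In KO macrophages 5 of the 9 genes rose and 3 fell, and Ifnar2 did not pass the test; with a trend in GC content and gene length removed, 3 rose and 3 fell, and the calls of Tyk2 and Stat2 were lost. Stat6 and Ifngr1 rose most, by 1.59-fold and 1.58-fold, and the other 7 genes differed by less than 1.5-fold. The 3 that fell were the receptor chains Ifnar1 and Ifngr2 and the kinase Jak2. All 9 passed the filter on low counts, and the lowest count of any of them in any library was 700. Across all genes, 61.3% of the 13080 tested genes were called, 31.5% higher and 29.8% lower in KO, so a call by itself does not set these genes apart. With the trend removed, 7257 of 12971 tested genes were called, and 50.7% of those calls were higher in KO. The groups did not overlap for 8 of the 9 genes, and for 65.9% of all tested genes. The median absolute log2 fold change was 0.27 over the 9 genes and 0.36 over all tested genes.

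Libraries held between 31976748 and 42448058 counts. Xbp1 was lower in every KO library (65.5 to 66.3 CPM, counts scaled to a common library size) than in every WT library (87.5 to 91.2 CPM), at -0.44 on the log2 scale (adjusted p = 2.38e-08 by edgeR, SE 0.0363). All 11 macrophage markers examined had counts, and their summed level was 20920 to 21599 CPM in KO and 38370 to 39905 CPM in WT, of which Lyz2 alone made up 11515 CPM in KO and 29831 CPM in WT on average. Without Lyz2 the other 10 summed to 9636 to 9733 CPM in KO and 9244 to 9275 CPM in WT, and of 10 tested macrophage markers 5 rose and 4 fell. Summed neutrophil markers were at 233 to 246 CPM in KO and 170 to 188 CPM in WT, and most of the sum came from S100a8 and S100a9. Of 10 neutrophil markers listed 6 were tested and all 6 rose, beside 31.5% of all tested genes. Among the 6, Elane (mean CPM 0.484 in KO, 0.080 in WT) and Prtn3 (0.578, 0.177) were scarce in WT. On these means they passed the filter on low counts through their KO libraries, so their rise was favoured in advance. The untested markers did not pass that filter. Of these, Ly6g (mean CPM 0.038 in KO, 0.083 in WT) and Retnlg (0.051, 0.071) were lower in KO. Mpo (0.095, 0.072) and Cxcr2 (0.102, 0.058) were higher. These neutrophil markers are named after their values were seen. Summed stromal markers were at 241 to 249 CPM in KO and 467 to 482 CPM in WT, with 5 of 9 tested markers fallen and 1 risen. Acta2 alone, named after its values were seen, made up 151 CPM of that sum in KO and 347 CPM in WT on average. B cell markers summed to 108 to 113 CPM in KO and 89.5 to 93.8 CPM in WT, and dendritic cell markers to 10.1 to 10.7 CPM in KO and 9.44 to 10.7 CPM in WT. T and NK cell markers summed to 3.49 to 4.16 CPM in KO and 4.67 to 5.70 CPM in WT, with Ncr1 at 0 in all 6. Most of that sum came from Lck (mean CPM 2.30 in KO, 4.15 in WT), which fell, and Cd4 (1.34, 0.83), which rose. Most of the B cell sum came from Blnk (110, 91.3). Lck, Cd4 and Blnk are named after their values were seen. The part of these marker differences in the results below was not tested, and in bulk RNA fewer cells of a type and less RNA per cell cannot be told apart.

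Promoter windows of the 9 genes, from 250 bases before to 50 bases after the RefSeq start site on GRCm38.p6, were searched on both strands for elements that interferon-activated STATs and XBP1 are known to bind. The gamma-activated site, spelled TTCNNNGAA and bound by STAT dimers, was found in the windows of Ifnar1 and Ifnar2 and in 8.3% of 32851 RefSeq promoters. The interferon-stimulated response element, spelled GAAANNGAAA and bound by ISGF3 and IRF proteins, was found in the window of Stat2 and in 3.44% of all promoters. The unfolded protein response element TGACGTGG was in none of the 9 windows and in 0.676% of all, while its ACGT core, a much shorter string, was in those of Jak1, Tyk2 and Stat6 and in 30.9% of all. The windows of the 3 genes with an interferon element and of Stat6, which rose most, are shown with the match in capitals; all 4 lie on the plus strand. They cover chr16:91484965-91485264 for Ifnar1, chr16:91372533-91372832 for Ifnar2, chr10:128270248-128270547 for Stat2 and chr10:127642736-127643035 for Stat6.
Ifnar1: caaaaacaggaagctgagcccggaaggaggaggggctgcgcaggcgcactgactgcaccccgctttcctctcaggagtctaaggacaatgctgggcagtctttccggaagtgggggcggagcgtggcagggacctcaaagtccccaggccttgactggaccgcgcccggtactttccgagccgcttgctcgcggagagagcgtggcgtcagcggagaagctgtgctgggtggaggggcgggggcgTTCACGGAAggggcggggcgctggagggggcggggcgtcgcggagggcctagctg
Ifnar2: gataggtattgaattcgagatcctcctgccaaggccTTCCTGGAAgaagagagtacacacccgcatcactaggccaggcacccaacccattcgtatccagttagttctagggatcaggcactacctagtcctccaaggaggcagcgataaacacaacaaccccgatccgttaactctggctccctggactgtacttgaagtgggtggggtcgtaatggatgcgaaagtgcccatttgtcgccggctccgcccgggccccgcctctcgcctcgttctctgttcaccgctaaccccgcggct
Stat2: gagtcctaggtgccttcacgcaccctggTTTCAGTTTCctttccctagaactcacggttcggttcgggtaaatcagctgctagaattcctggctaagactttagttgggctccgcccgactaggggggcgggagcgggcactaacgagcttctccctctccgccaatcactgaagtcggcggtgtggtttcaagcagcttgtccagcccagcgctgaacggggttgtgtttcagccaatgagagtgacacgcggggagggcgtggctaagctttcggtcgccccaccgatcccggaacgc
Stat6: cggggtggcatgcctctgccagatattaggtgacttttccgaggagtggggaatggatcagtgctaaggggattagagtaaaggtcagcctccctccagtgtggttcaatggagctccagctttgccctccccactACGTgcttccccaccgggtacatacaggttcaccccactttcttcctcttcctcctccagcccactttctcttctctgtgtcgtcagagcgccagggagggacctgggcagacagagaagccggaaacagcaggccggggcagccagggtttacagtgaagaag
The match in Ifnar1 runs from -5 to 4 around the start site, that in Ifnar2 from -214 to -206, and that in Stat2, which reads as the element on the opposite strand, from -222 to -213. The ACGT of Stat6 lies at -114 to -111. A match describes the letters of the window and is not evidence of binding.

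The receptor chains did not move together. Ifnar1, the lower-affinity chain of the type I receptor (ENSMUSG00000022967, chromosome 16, 91485238 to 91507441 on mm10), had 151.5, 154.5 and 155.4 CPM in KO replicates 1 to 3, against 174.1, 171.7 and 174.2 CPM in WT replicates 1 to 3. Every KO library was below every WT library, and the spread within a genotype was small. Ifnar1 fell by 0.17 on the log2 scale (SE 0.0325, 95% interval -0.24 to -0.10, edgeR adjusted p = 2.12e-04). With the GC and length trend removed the value was -0.37, and with library totals as the only scaling it was -0.06 and the call was lost (adjusted p = 0.140).

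Ifnar2, which encodes the high-affinity ligand-binding chain of the same receptor, stands upstream on the same strand (ENSMUSG00000022971, 91372783 to 91405589). Its levels were 158.6, 155.8 and 149.3 CPM in KO and 146.5, 151.9 and 147.6 CPM in WT. The groups overlapped, since KO replicate 3 lay below WT replicate 2. The log2 fold change of 0.06 did not pass the test (SE 0.0355, 95% interval -0.02 to 0.13, adjusted p = 0.184). Scaling by library totals alone gave 0.17 and a call (adjusted p = 5.49e-04).

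Ifngr1, the ligand-binding chain of the interferon gamma receptor (ENSMUSG00000020009, chromosome 10, 19591949 to 19610229), is the least abundant of the 9 genes in counts. It had 34.0, 34.3 and 33.2 CPM in KO and 20.4, 21.5 and 22.4 CPM in WT. All KO libraries were above all WT libraries, by a margin several times the spread within either genotype. The log2 fold change was 0.66 (SE 0.0530, 95% interval 0.55 to 0.77, adjusted p = 1.55e-08), or 0.72 with the trend removed.

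Ifngr2, the chain that brings JAK2 to that receptor (ENSMUSG00000022965, chromosome 16, 91547072 to 91565623), went the other way. Its levels were 343.3, 339.5 and 342.6 CPM in KO and 405.2, 393.6 and 416.2 CPM in WT. The KO libraries lay close together and below all WT libraries. Ifngr2 fell by 0.24 (SE 0.0310, 95% interval -0.31 to -0.18, adjusted p = 3.16e-06), by 0.32 with the trend removed and by 0.13 with library totals.

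Ifnar2, Ifnar1 and Ifngr2 lie within 193 kb of chromosome 16, all on the plus strand, with Il10rb, the shared chain of the interleukin-10 and interferon lambda receptors, between Ifnar2 and Ifnar1. Il10rb, named after its values were seen, had a log2 fold change of -0.22 (adjusted p = 3.89e-05). Of the 4 neighbours, Ifnar2 is thus the one that did not fall. The annotated gene Gm21970 overlaps Ifnar2 on the same strand over 13869 bp and had 0 counts in all libraries.

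**Figure D1:**
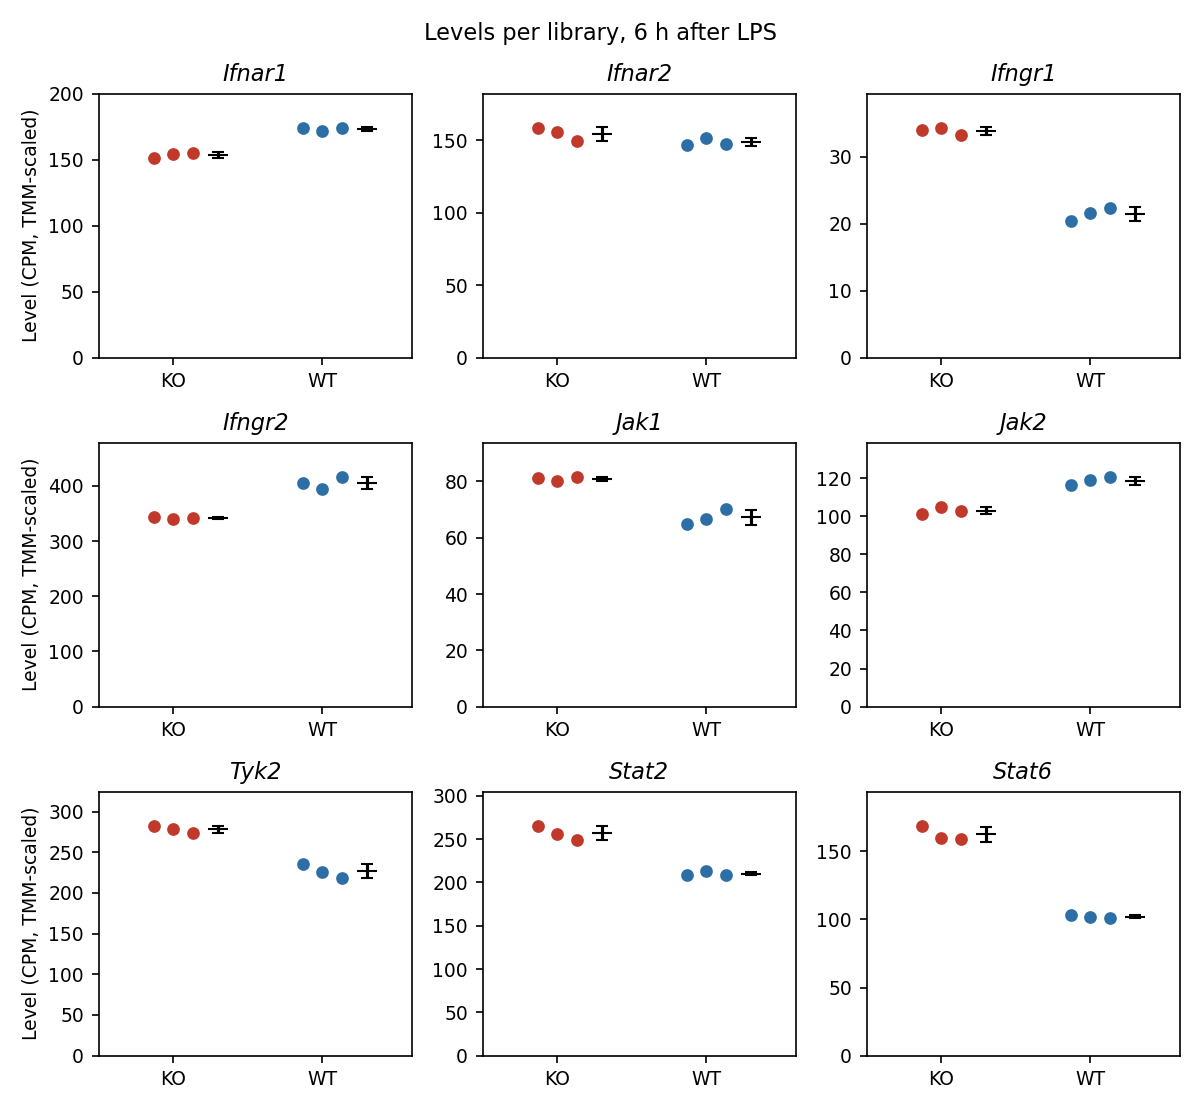
Levels of the 9 genes in each library, in TMM-scaled CPM on axes that differ between panels, with KO left of WT, points for the 3 libraries of a genotype and bars for their mean and SD. The groups are separate for 8 genes and overlap for Ifnar2 (149.3 to 158.6 CPM in KO and 146.5 to 151.9 CPM in WT).

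The plot of levels by library shows the 9 genes side by side. Among the kinases Jak1 and Tyk2 rose and Jak2 fell, and the rise of Tyk2 was not retained once the GC and length trend was removed. Jak1, the kinase shared by both interferon receptors and many cytokine receptors (ENSMUSG00000028530, chromosome 4, 101152367 to 101265282, minus strand), had 81.2, 80.1 and 81.6 CPM in KO and 64.8, 66.8 and 70.1 CPM in WT. The KO libraries were all higher, and they varied less than the WT libraries. Its log2 fold change was 0.27 (SE 0.0391, 95% interval 0.19 to 0.35, adjusted p = 1.55e-05), or 0.14 with the trend removed (adjusted p = 0.00394).

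Jak2, which serves the interferon gamma receptor and the receptors of growth hormone and GM-CSF (ENSMUSG00000024789, chromosome 19, 29251828 to 29313080), had 101.3, 104.8 and 102.8 CPM in KO and 116.4, 118.8 and 120.6 CPM in WT. All 3 KO libraries were below all 3 WT libraries. It fell by 0.20 (SE 0.0346, 95% interval -0.28 to -0.13, adjusted p = 7.55e-05), by 0.13 with the trend removed and by 0.09 with library totals (adjusted p = 0.0364).

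Tyk2, the kinase of IFNAR1 (ENSMUSG00000032175, chromosome 9, 21104068 to 21131243, minus strand), had 282.4, 279.2 and 273.4 CPM in KO and 236.0, 225.4 and 219.0 CPM in WT. The groups were well separated. The log2 fold change was 0.30 (SE 0.0348, 95% interval 0.22 to 0.37, adjusted p = 1.42e-06). It was -0.06 with the trend removed and no longer called (adjusted p = 0.0691): its longest transcript has the highest GC content of the 9 genes, 57.0%, and the fitted trend alone came to 0.36 for a gene of its GC content and length.

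Both STAT genes rose, but Stat2 did not hold its call without the trend. Stat2, the ISGF3 subunit that supplies the main activation domain (ENSMUSG00000040033, chromosome 10, 128270559 to 128292849), had 265.1, 256.2 and 248.9 CPM in KO and 209.0, 212.6 and 208.7 CPM in WT. The KO libraries were all higher and more spread out than the WT libraries. The log2 fold change was 0.29 (SE 0.0336, 95% interval 0.22 to 0.36, adjusted p = 1.21e-06), against 0.03 with the trend removed (adjusted p = 0.407).

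Stat6, the transcription factor of the IL-4 and IL-13 response (ENSMUSG00000002147, chromosome 10, 127642986 to 127660957), had 168.6, 159.4 and 159.0 CPM in KO and 103.1, 101.5 and 101.3 CPM in WT. The lowest KO library exceeded the highest WT library by far more than the spread within either genotype. The log2 fold change was 0.67 (SE 0.0358, 95% interval 0.59 to 0.75, adjusted p = 1.17e-10), or 0.43 with the trend removed. Its 3' end overlaps that of Nab2 on the opposite strand by 40 bp, and no source used here says whether reads were counted by strand. Nab2 had 2101 to 2587 counts in KO and 1579 to 1980 in WT. In the authors' deposited table the log2 fold change is 0.67 for Stat6 and 0.66 for Ifngr1.

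The genes most like Stat6 across the 6 libraries, by Pearson's r of log2 CPM, were Mef2d, Nploc4 and Gucd1, each with r = 0.999. Such likeness was common, since 577 of 13079 genes reached r over 0.99, and the points share the split by genotype.

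**Figure D2:**
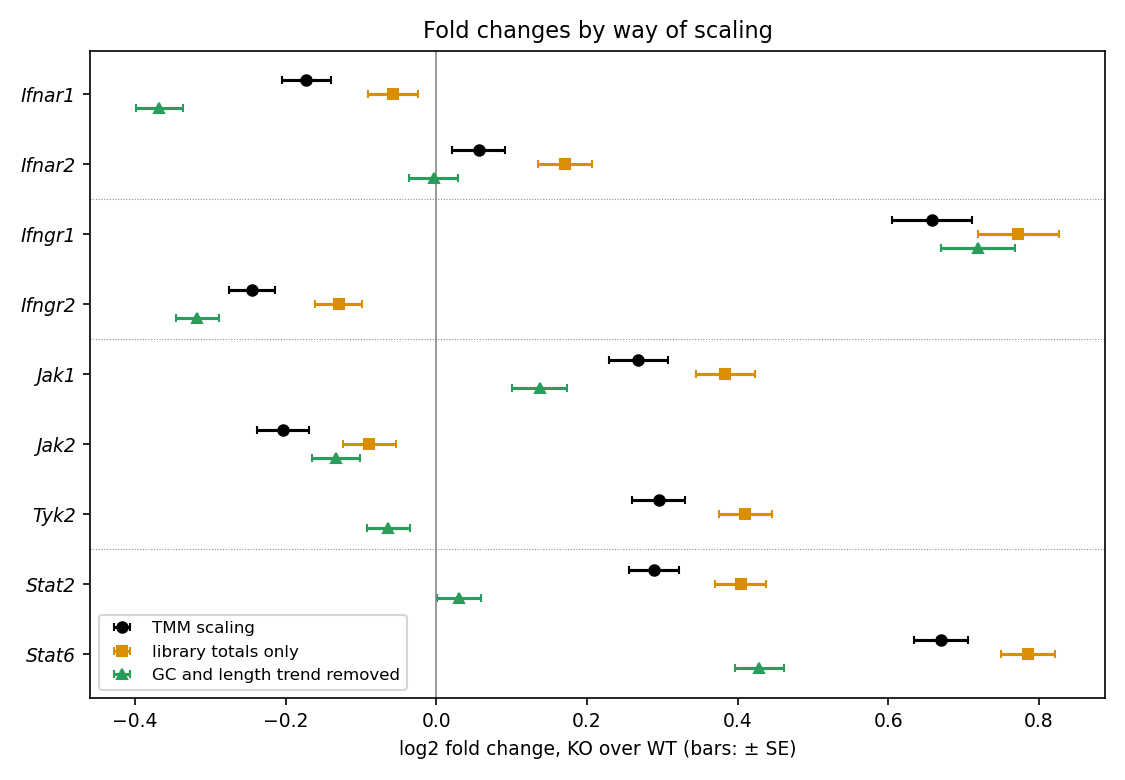
Log2 fold changes of the 9 genes, KO over WT, with bars of 1 SE to either side, under TMM scaling, with library totals only, and with the GC content and gene length trend removed. Stat6 and Ifngr1 lie to the right of 0 and Ifngr2 and Jak2 to the left under all 3, while Tyk2 is at 0.30 with TMM and at -0.06 with the trend removed.

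The plot of fold changes by scaling shows that several of these values move with the way counts are scaled. Log2 fold changes over all genes followed GC content, with medians of -0.23 among the 20% of genes lowest in GC and 0.19 among the 20% highest. They followed gene length likewise, with medians of -0.28 in the shortest and 0.15 in the longest 20%. The trend accounted for 18.0% of the deviance in a fit over 12971 genes with both values. Ifngr1, with a GC content of 48.4%, and Jak2, with 44.3%, are the members for which the fitted trend was below 0.

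Ratios between partner genes within a library do not depend on scaling between libraries, but the GC and length trend still enters them. The log2 ratio of Ifngr1 to Ifngr2 counts was -3.34, -3.31 and -3.37 in KO and -4.31, -4.19 and -4.22 in WT. The ligand-binding chain was thus less outweighed by its partner in all KO libraries, with a difference of 0.90 or 1.87-fold, and of 1.04 with the trend removed. The log2 ratio of Jak2 to Jak1 was 0.32, 0.39 and 0.33 in KO and 0.85, 0.83 and 0.78 in WT, a difference of -0.47, or -0.27 with the trend removed. These groups were also separate, as Jak2 had more counts than Jak1 in every library but by a smaller margin in KO.

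For the type I receptor the log2 ratio of Ifnar1 to Ifnar2 was -0.07, -0.01 and 0.06 in KO and 0.25, 0.18 and 0.24 in WT, a difference of -0.23, or -0.36 with the trend removed. The pair was near equal in counts in KO and tilted to Ifnar1 in WT, but counts are not scaled by gene length. In mean FPKM, Ifnar2 was above Ifnar1 in both genotypes, at 46.1 against 25.7 in KO and 44.3 against 28.9 in WT. The ratio of counts therefore serves only to compare KO with WT. Each of these 3 differences in counts as deposited had an exact two-sided permutation p = 0.1, the smallest that 3 against 3 libraries allow, and 0.133 after Benjamini-Hochberg adjustment over 4 ratios. The fourth ratio, Tyk2 to Jak1, was 1.80, 1.80 and 1.74 in KO and 1.86, 1.75 and 1.64 in WT, with overlapping groups (difference 0.03, exact permutation p = 0.8) and a difference of -0.03 without WT replicate 3. With the trend removed, an alternative for the ratios that was chosen after seeing the data, all 3 KO libraries lay below the lowest WT library in that ratio, with a difference of -0.20 (exact permutation p = 0.1).

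**Figure D3:**
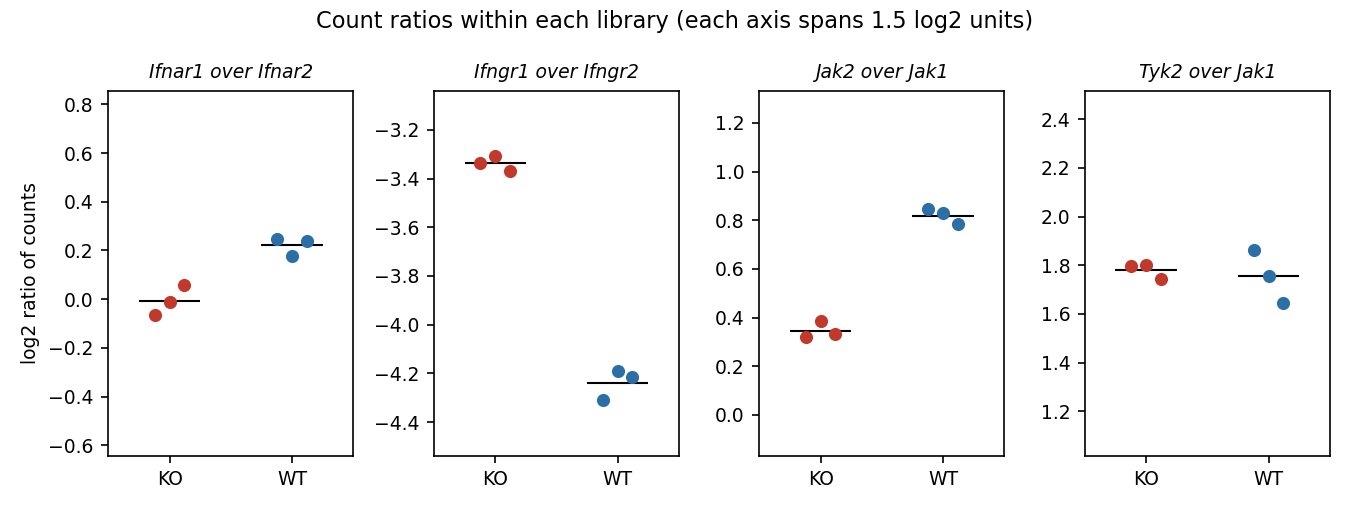
Log2 ratio of counts of partner genes in each library, with KO left of WT, points for libraries and a line at their mean, on axes that differ between panels but cover the same span. KO and WT are separate for Ifngr1 over Ifngr2 (difference 0.90), Jak2 over Jak1 (-0.47) and Ifnar1 over Ifnar2 (-0.23), and overlap for Tyk2 over Jak1, which was at -0.20 with separate groups once the GC and length trend was removed.

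Levels of different genes were compared in the deposited FPKM, which are scaled by gene length and library total. In KO the order of the mean FPKM levels was Ifngr2 (90.2), Ifnar2 (46.1), Stat2 (43.1), Tyk2 (40.3), Stat6 (36.7), Ifnar1 (25.7), Jak2 (20.3), Ifngr1 (11.8) and Jak1 (11.1), and the ranges of no 2 neighbours overlapped. In WT the first 4 genes stood in the same order, with Ifngr2 at 106.7, Ifnar2 at 44.3, Stat2 at 35.2 and Tyk2 at 32.8 FPKM. Ifnar1 (28.9), Jak2 (23.4), Stat6 (23.0), Jak1 (9.23) and Ifngr1 (7.47) followed, and there the ranges of Jak2 and Stat6 overlapped. Ifngr2 was the most abundant in every library, and the order of KO and WT differed in that Stat6 stood above Ifnar1 and Jak2, and Ifngr1 above Jak1, in KO.

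**Figure D4:**
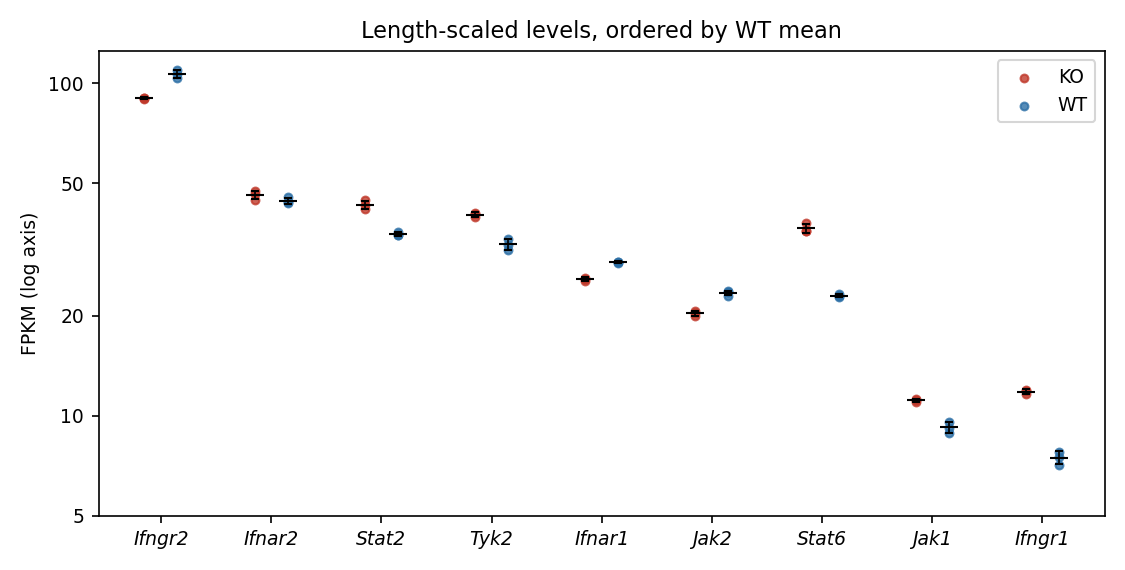
Deposited FPKM of the 9 genes in each library on a log axis, with KO left of WT within each gene and genes ordered by their mean in WT, points for libraries and bars for the mean and SD. Ifngr2 is highest in both genotypes (90.2 FPKM in KO and 106.7 FPKM in WT on average) and Stat6 stands above Ifnar1 in KO and level with Jak2 in WT.

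Further members of both families were mostly higher in KO. Of 5 examined, 4 rose and none fell, with a median log2 fold change of 0.50, but the median was 0.20 with the trend removed, with 3 risen and Stat3 fallen. Stat5a and Stat5b, which serve growth hormone, GM-CSF and prolactin receptors, had log2 fold changes of 0.56 and 0.51, and Jak3, the kinase of the common gamma chain, of 0.50; with the trend removed they were 0.20, 0.24 and 0.21. Stat3, the factor of the IL-6 and IL-10 response, rose by 0.19 and was at -0.15 without the trend. Stat4 was below 1 CPM in all libraries and was not called. Stat3 and Stat4 are named here after their values were seen.

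Of the ligands of these receptors only Ifnb1, the gene of interferon beta, was expressed enough to test. It had 1.68, 1.61 and 2.48 CPM in KO and 3.95, 3.89 and 3.87 CPM in WT, and the groups did not overlap. The fitted KO level was 0.499 times the WT level (log2 SE 0.170, adjusted p = 7.57e-05), and its log2 fold change was -0.46 with the trend removed. Of the other 20 interferon genes listed, 15 had 0 counts in all libraries, which allows up to 0.0938 CPM in a KO library and 0.0921 CPM in a WT library by counting error alone, and 5 had between 1 and 16 counts over all 6, among them Ifng with 1.

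Irf9, the DNA-binding subunit of ISGF3, had a log2 fold change of 0.02 and overlapping groups (adjusted p = 0.551), and was at -0.16 with the trend removed. Among 5 interferon regulatory factors examined, Irf9 included, Irf7 rose by 0.13, whereas Irf8 and Irf1 fell by 0.37 and 0.22. The direction of Irf7 turned with the trend removed, to -0.09, and all 5 were then called lower. Irf8 and Irf1 fell further in that fit, to -0.65 and -0.41.

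Other cytokine receptors that use these kinases moved in both directions, with 9 of 16 tested genes risen and 4 fallen and a median of 0.14; with the trend removed 7 rose and 8 fell and the median was -0.11. Il6ra, the IL-6 receptor chain, rose by 1.20. Ghr, the growth hormone receptor, fell by 1.45, and Lifr, the leukaemia inhibitory factor receptor, by 1.80, where Lifr had 3 to 6 counts in KO libraries and 10 to 22 in WT libraries. Lifr, which is among the 4 fallen, passed the filter on low counts only through its WT libraries. Its fall was thus favoured in advance. Of the 3 chains of the IL-4 and IL-13 receptors that signal to STAT6, named after their values were seen, Il13ra1 fell by 1.11 and Il2rg, the common gamma chain, rose by 0.33 (adjusted p = 3.95e-07). Il4ra had a log2 fold change of 0.09 (adjusted p = 0.0479), and the call did not hold without KO replicate 1, 2 or 3 or without WT replicate 1 or 3 (adjusted p 0.0682 to 0.185); with the trend removed it was at -0.24 and called lower (adjusted p = 6.52e-06).

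Negative regulators of the pathway were also mixed, with 7 of 19 risen, 5 fallen and a median of 0.04. With the trend removed 6 rose and 7 fell, and the median was 0.00065. The adaptor gene Sh2b3 and the phosphatase genes Ptpn1 and Ptpn11 rose by 0.85, 0.83 and 0.68, and by 0.56, 0.51 and 0.43 with the trend removed. Ptpn1 encodes PTP1B, a phosphatase of JAK2 and TYK2. Usp18, whose protein binds IFNAR2 and limits type I signalling, had 742 ± 10.3 CPM in KO and 1183 ± 17.6 CPM in WT (SD, n = 3 each), a log2 fold change of -0.67 (adjusted p = 3.30e-12). Ptpn2, a phosphatase of JAK1, fell by 0.63, or by 0.24 with the trend removed, and was named after its values were seen. Socs1, the inhibitor of JAK kinases induced by interferon, had a log2 fold change of 0.04 (adjusted p = 0.456), or -0.10 with the trend removed. Socs3 was at 0.08 (adjusted p = 0.0271), and the call did not hold without KO replicate 1 or 2 or without WT replicate 2 or 3 (adjusted p 0.0503 to 0.0792); with the trend removed it was at -0.06 and called lower (adjusted p = 0.0455).

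Target genes of the pathway were mostly lower. Of 25 ISGF3 targets 22 fell and 1 rose, with a median log2 fold change of -0.46, or -0.38 with the trend removed. Ifit3, Ifit2 and Rsad2, which encode antiviral proteins, fell by 1.08, 1.08 and 1.03; reads of Ifit3 may be shared with a near-identical copy. The member that rose was Oas3, an oligoadenylate synthetase, at 0.55, or 0.20 with the trend removed. Of 16 interferon gamma targets 13 fell and 2 rose, with a median of -0.48. Cxcl9, a T cell chemoattractant, was at 0.354 times its WT level, the GTPase gene Iigp1 fell by 1.28 and the costimulatory receptor gene Cd40 by 0.91 on the log2 scale. Ciita, the master regulator of MHC class II, and Icam1, an adhesion molecule, rose by 0.76 and 0.51; with the trend removed Icam1 was at 0.24 and Ciita at 0.37, no longer called.

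Of 12 tested STAT6 targets 6 fell and 1 rose, with a median of -0.31, or -0.19 with the trend removed. The chemokine gene Ccl17 had 0.736 ± 0.287 CPM in KO and 2.17 ± 0.303 CPM in WT, a log2 fold change of -1.56. Ch25h, which makes 25-hydroxycholesterol, fell by 1.22, and Mrc1, the mannose receptor gene, by 0.79. Chil3, the gene of the chitinase-like protein Ym1, rose by 0.77, or 1.10 with the trend removed. Stat6 transcript was higher in the same libraries, at 162 ± 5.40 CPM in KO and 102 ± 0.996 CPM in WT. Levels of these transcripts do not measure STAT6 activity, which was not tested. Oas3, Ciita, Icam1 and Chil3 are named after their values were seen, and each list is described by its counts and median beside the 31.5% higher, the 29.8% lower and the median of -0.00 over all genes. For list values with the trend removed, the fit called 7257 of 12971 genes. Of those calls 50.7% were higher in KO, and the median over all genes was 0.01.

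**Figure D5:**
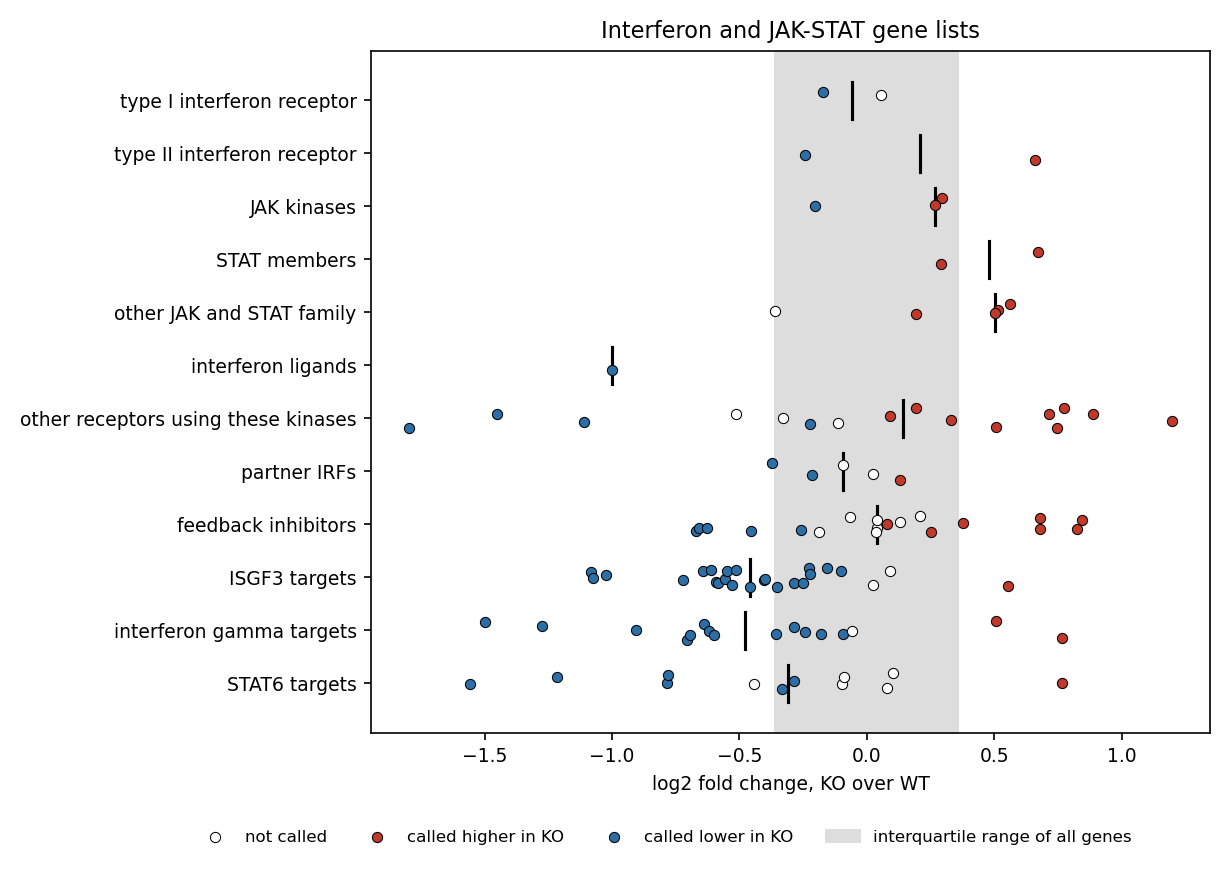
Log2 fold changes, KO over WT with TMM scaling, of every tested gene in each list, with a bar at the list's median, colour for calls and a grey band for the interquartile range of all tested genes. Of the ISGF3 targets 22 of 25 are called lower, while 4 of the 5 other JAK and STAT genes are called higher, of which Stat3 was called lower with the GC and length trend removed.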

How the data were processed

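NEBNext Ultra libraries were prepared from total RNA (labels' protocols). The submitters' processing notes name Bowtie 0.12.2, mm8 and mm10, without saying what each build was used for. The columns headed as counts hold whole numbers and were taken to be unscaled reads assigned to each gene. The deposited FPKM values are scaled by gene length and library total and were used only to order the genes by level. The deposited signal columns are the authors' mean normalized counts per genotype and were not used for tests. The authors' deposited log2 fold changes and p-values come with no named tool in the headers. Of the Ensembl identifiers, 98.3% had coordinates identical to GENCODE vM21 on mm10, and positions are on that build.

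Counts of all 6 libraries were tested over all genes with edgeR 4.0.16 in R 4.3.3: quasi-likelihood test, TMM scaling, default expression filter, genotype as the term, two-sided, and calls at a Benjamini-Hochberg adjusted p under 0.05. CPM are TMM-scaled, a fold change above 0 on the log2 scale means higher in KO, and SE is the absolute log2 fold change over the square root of F. GC content of the longest transcript and the deposited gene length were removed as a smooth trend per library with mgcv 1.9.3 as an alternative. Other alternatives were other scalings, no filter, DESeq2 1.42.0, a replicate block and leaving out each library. Ratios used counts plus 0.5. All 9 genes matched a promoter in the RefSeq table.

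The genes, lists, motifs and tests were chosen with earlier results of these data known. Named genes are the 9, Xbp1, up to 3 called genes of largest change per list, Ifnb1, Irf9, Socs1, Socs3 and Usp18, and the 3 genes most like Stat6; others are marked in the text. A further gene of the JAK and STAT families is not reported here and was left out of its list's counts. Libraries of 1 genotype differed by more than sampling noise (chi-square per degree of freedom 2.66 to 5.91), so none was treated as a duplicate.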

Additional observations from a re-analysis of the deposited data

How the results depend on the processing

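Over the 13 alternatives, Stat6, Ifngr1, Jak1, Ifngr2 and Jak2 kept their direction and their call in all, Ifnar1 in 12, and Tyk2 and Stat2 in 11. Leaving out any 1 library changed no call among the 9 genes. With the GC and length trend removed, 3 of the 9 genes were called higher, with Tyk2 at -0.064 and Stat2 at 0.030 on the log2 scale, and the sign turned for Ifnar2 (-0.0037), Stat3 (-0.15), Irf7 (-0.093), Irf9 (-0.16), Socs1 (-0.10), Socs3 (-0.060) and Il4ra (-0.24). With library totals only, Ifnar1 was at -0.058 and not called, and Ifnar2 was at 0.17 and called; that scaling moved the median of all genes to 0.11 and made 63.4% of all calls higher in KO, against 51.3% with TMM. The Tyk2 to Jak1 difference was -0.20 with the trend removed, and ranged between -0.028 (without WT replicate 3) and 0.083 (without WT replicate 1) when 1 library was left out. The cause of these changes was not tested.

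Libraries of the same number in KO and WT showed no sign of deviating together (r of -0.04, 0.04 and 0.04, against -0.07 to 0.04 for unlike numbers). Such values cannot exclude pairing, and the labels do not say whether equal numbers share an animal or a day. The replicate block left 8013 of 13080 genes called, against 8019 without it, and changed no call among the 9 genes. With the block and the trend removal together, 3 of the 9 genes were called higher, Tyk2 was at -0.064, Stat2 at 0.030, Ifnar2 at -0.0037, Stat3 at -0.15, Irf7 at -0.093, Irf9 at -0.16, Socs1 at -0.10, Socs3 at -0.059 and Il4ra at -0.24.

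With 3 libraries per genotype the exact permutation test of a single ratio cannot reach a p below 0.1. The lowest count in a library was 3 for Lifr, 18 for Stat4, 19 for Ccl17, 37 for Ghr, 50 for Ciita, 56 for Ifnb1 and 87 for Mrc1, while it was 700 among the 9 genes.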
